A study of Homo sapiens with 12 samples.

Results

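The 35 genes described here encode proteins that build ribosomes in the nucleolus, out of 19630 protein-coding genes with a start site in the annotation used. They were chosen by name from what they are known to do, with earlier results of these data known. Peaks were taken on each gene body with 5 kb on each side (the locus), and those within 1 kb of the start site (the promoter) were kept apart. In 3 human acute myeloid leukaemia (AML) lines, open chromatin had been profiled by ATAC-seq, in which the Tn5 transposase inserts sequencing adapters into accessible DNA. MOLM13 carries the MLL-AF9 fusion and MV4-11 the MLL-AF4 fusion, both rearrangements of MLL1 (MLL1-r), and OCI-AML3 carries mutant NPM1 (mtNPM1). MOLM13 also carries the FLT3 mutation FLT3-ITD, and whether the other lines carry it is not given here. Cells of each line were cultured as control or with 500 nM of VTP50469, an inhibitor of the binding of menin to MLL1, for 16 h, with 2 libraries in each of 6 groups. MOLM13 and OCI-AML3 had been grown in RPMI and MV4-11 in IMDM medium, all cells had been frozen before nuclei were isolated, and the agent given to the controls is not stated. With 1 line for mtNPM1, the mutation cannot be told apart from the line, and the line MV4-11 cannot be told apart from its medium.

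Ribosome biogenesis begins when RNA polymerase I transcribes the ribosomal DNA in the nucleolus. Small nucleolar ribonucleoproteins (snoRNPs) then guide ribose methylation (box C/D) and pseudouridylation (box H/ACA) of the precursor RNA, and separate sets of factors fold, cut and export the small and the large subunit. NPM1 (nucleophosmin) is an abundant nucleolar chaperone, and the AML mutation in its last exon moves the protein to the cytoplasm. Many genes of the pathway are known targets of MYC, which binds the E-box.

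The promoter sequences are described first, as counts with no test. RefSeq (GRCh38.p14) promoter sequences of 300 bases, from 250 before to 50 after the start site, were at hand for 28 of the 35 members and for 15812 protein-coding genes. The E-box CACGTG reads the same on both strands. It was found in 10 of the 28 members (35.7%), in 8.87% of all 15812 promoters and in 11.1% of the 8499 promoters with a peak in all 12 libraries. Of a further 60 ribosome biogenesis genes 21 held it (35%), whereas 1 of 32 cytoplasmic ribosomal protein genes (3.12%) and 5 of 31 DNA replication genes (16.1%) did. In all 10 members the E-box lay at the start site, its first base between 16 bases before and 35 bases after it. An E-box whose first base lay from -20 to 40, a window set after these positions were seen, was held by 1.84% of all promoters and by 2.57% of those with a peak in all 12 libraries.

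The 10 stretches below are shown because they carry this shared feature, with the E-box in capitals, up to 12 bases on either side, 5′ to 3′ on the strand of the gene, and positions counted from 0 at the start site.
FBL, chr19:39846356-39846385, minus strand, first base of the E-box at 6: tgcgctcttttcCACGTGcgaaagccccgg
MYBBP1A, chr17:4555340-4555369, minus strand, first base of the E-box at 27: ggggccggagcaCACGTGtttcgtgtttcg
WDR43, chr2:28894658-28894687, plus strand, first base of the E-box at 3: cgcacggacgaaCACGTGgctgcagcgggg
UTP4, chr16:69132621-69132650, plus strand, first base of the E-box at -16: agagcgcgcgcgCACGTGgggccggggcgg
UTP20, chr12:101280083-101280112, plus strand, first base of the E-box at -10: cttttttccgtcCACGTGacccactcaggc
RRP9, chr3:51941892-51941921, minus strand, first base of the E-box at -5: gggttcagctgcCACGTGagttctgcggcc
NOP14, chr4:2963374-2963403, minus strand, first base of the E-box at 15: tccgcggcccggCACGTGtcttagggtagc
NAT10, chr11:34105602-34105631, plus strand, first base of the E-box at -15: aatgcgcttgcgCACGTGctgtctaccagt
PES1, chr22:30591880-30591909, minus strand, first base of the E-box at 13: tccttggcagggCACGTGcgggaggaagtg
NOP2, chr12:6568242-6568268, minus strand, first base of the E-box at 35: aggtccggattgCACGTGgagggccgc

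**Figure D1:**
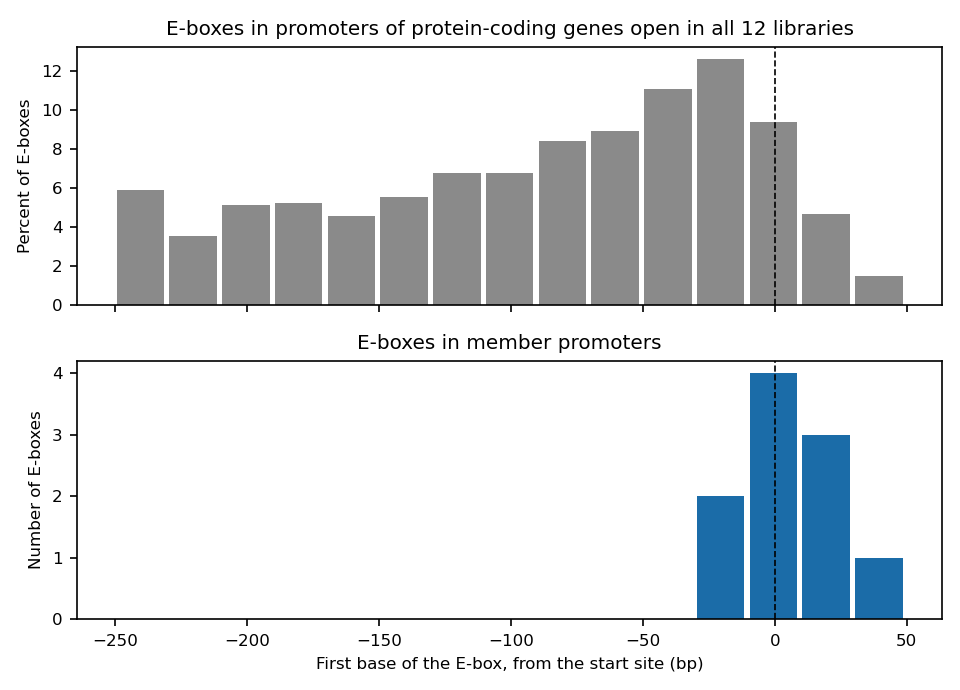
Position of E-boxes relative to the start site in bins of 20 bp, as percent of all E-boxes in promoters of protein-coding genes with a peak in all 12 libraries (top) and as number in the members (bottom). All 10 member E-boxes fall in the 4 bins at the start site, from -30 to 49. The promoters at the top hold E-boxes over the whole window. The same 4 bins hold 12.6%, 9.37%, 4.69% and 1.5% of them, and the first of these is the fullest bin.

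By role, the E-box was in 6 of 8 small subunit genes, 2 of 7 large subunit genes, 1 of 5 RNA polymerase I genes and 1 of 2 box C/D genes with a sequence. It was present in MYBBP1A, a nucleolar partner of RNA polymerase I transcription, in FBL (fibrillarin), the ribose methyltransferase of box C/D snoRNPs, and in the large subunit factors PES1 and NOP2. The small subunit carriers were WDR43, UTP4, UTP20, RRP9, NOP14 and NAT10. The 3 box H/ACA genes DKC1, GAR1 and NHP2 and the 3 scaffold genes NPM1, NPM3 and NCL did not hold it. The E-box carriers and the 17 other members with a sequence and a promoter peak in all 12 libraries had median percentiles of promoter strength of 63.3 and 66.

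Other motifs were counted on both strands. The ETS site CCGGAAG was in 8 of 28 members (28.6%) against 14.2% of all promoters and 22.2% of those with a peak in all 12 libraries, among them FBL, GAR1 and RRP9. GGGCGG, bound by SP and KLF factors, was in 71.4% of the members against 73.9% of the promoters with a peak in all 12 libraries, and CCAAT in 35.7% against 38.2%. The NRF1 site GCGCATGC was in 3 members (10.7%) against 4.26% of all promoters and 6.46% of those with a peak in all 12 libraries. The YY1 site AAGATGGCG was in 1 (NIP7, 3.57% against 2.74% and 4.68%) and TATAAA in 1 (UTP20, 3.57% against 9.64% and 4.79%). Median GC content was 63.8% in the members and 62.7% in all promoters, and the median ratio of observed to expected CpG was 0.87 and 0.76. For 3 nucleolar proteins that the results return to, NPM1, NCL and FBL, the 120 bases before the start site are given with every searched motif in capitals. That of NPM1 holds none of these exact words, though it holds tatataa, a variant of TATAAA that was not searched for. NCL has 1 CCAAT box, read on the other strand, and FBL has GGGCGG at 2 positions.
NPM1, chr5:171387729-171387848, plus strand: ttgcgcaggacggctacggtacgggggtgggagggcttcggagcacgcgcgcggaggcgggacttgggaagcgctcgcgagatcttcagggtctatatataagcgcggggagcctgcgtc
NCL, chr2:231464485-231464604, minus strand: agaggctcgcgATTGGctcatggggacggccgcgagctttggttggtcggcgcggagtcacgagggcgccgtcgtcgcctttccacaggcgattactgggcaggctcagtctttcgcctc
FBL, chr19:39846380-39846499, minus strand: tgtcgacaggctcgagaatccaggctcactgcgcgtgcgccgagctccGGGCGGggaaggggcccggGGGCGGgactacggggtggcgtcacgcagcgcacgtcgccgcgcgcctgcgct

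The genes shared structural features too. A snoRNA gene lay inside 8 of 35 members (22.9%), against 2.67% of all protein-coding genes, with 25 snoRNA genes in all. NOP56 and GNL3 (nucleostemin) held 5 each, NOP58 4, NCL and WDR43 3 each, DKC1 and PPAN 2 each, and UTP20 1. A start site of another protein-coding or lncRNA gene on the opposite strand lay within 1 kb of 17 members (48.6%), against 23% of all protein-coding genes. Examples are PBRM1 beside GNL3, with its start at -7 from that of GNL3, HSF1 beside BOP1, at -166, and PTCD3 beside POLR1A, at -349. At these 17 genes the promoter peak cannot be assigned to 1 gene of the pair.

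Nearly every member promoter was open in every library. A promoter peak was called in all 12 libraries for 34 of 35 members, against 51.6% of all protein-coding genes. Of the comparison lists, 66 of 70 other ribosome biogenesis genes, 42 of 43 cytoplasmic ribosomal protein genes and 34 of 36 DNA replication genes had one. Of marker lists of 6 genes each, 3 myeloid genes and no T cell, B cell or erythroid gene had a promoter peak in all 12 libraries. The strength of a peak is given as its fold enrichment, summit reads divided by the local background MACS2 had set for that library, and as its percentile among promoter peaks of protein-coding genes in that library. Among genes with a promoter peak in all 12 libraries, the 34 members had a median percentile of 70.0, against 58.5 for the 10125 protein-coding genes, 73.1 for other ribosome biogenesis genes, 71.5 for ribosomal protein genes and 74.2 for DNA replication genes. The summit lay within 250 bp of the start site for 30 of the 34 members (88.2%), against 80.1% of the same 10125 genes, at a median of 72 bp before it. Libraries held 68670 to 145364 peaks with a median of 9 to 13 reads over the summit, and the 34 members had 9 to 116.

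**Figure D2:**
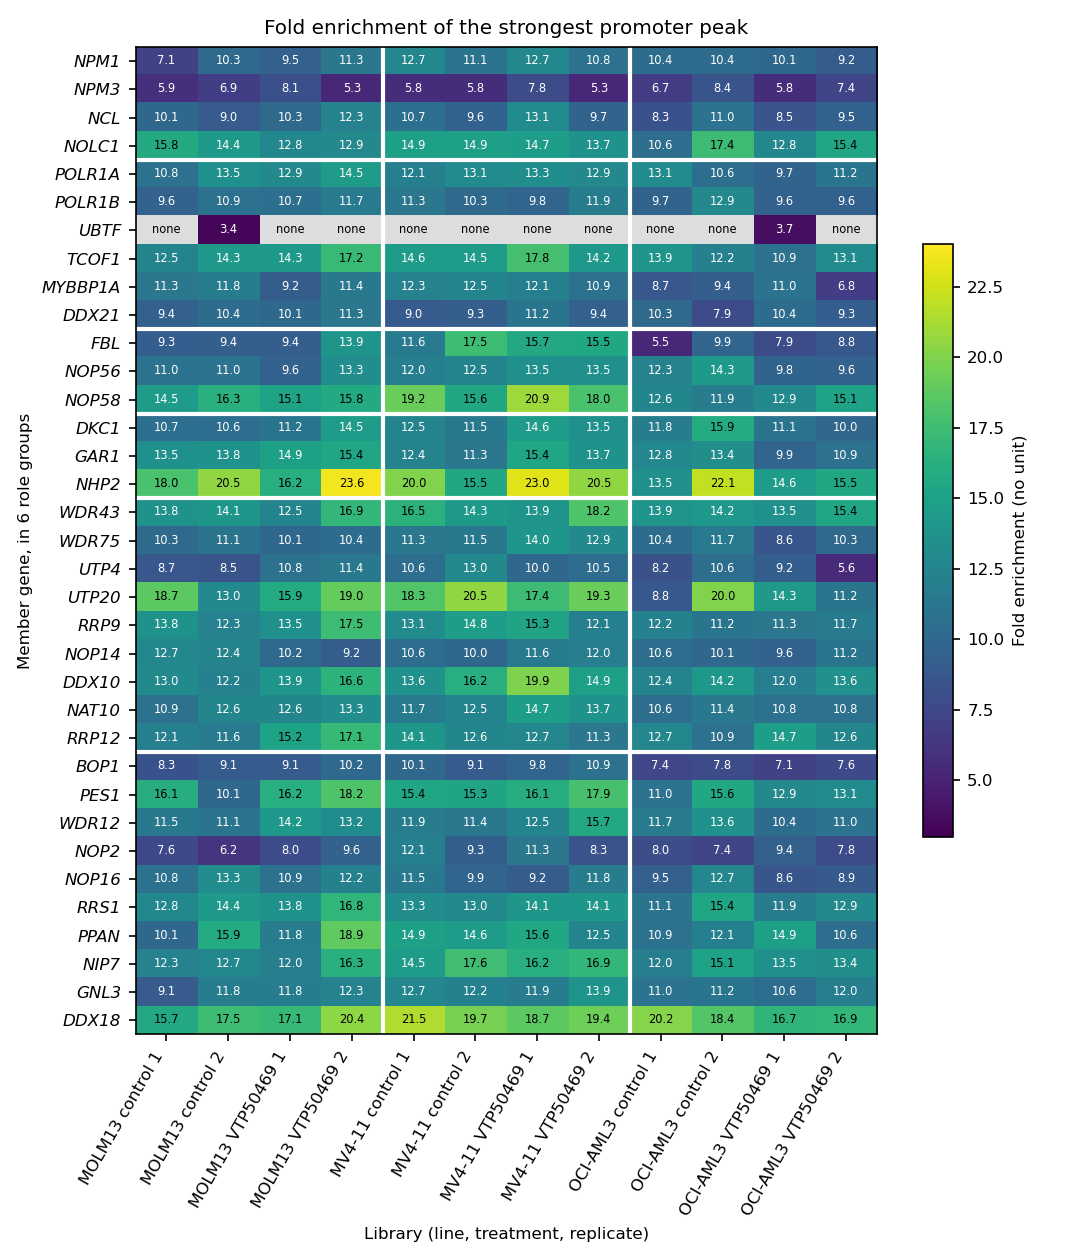
Fold enrichment (colour and printed value, no unit) of the strongest promoter peak of the 35 members (one per line of the map, in 6 role groups) in the 12 libraries (columns). Rows for NHP2, DDX18 and UTP20 are brightest, NPM3 is dark throughout, and UBTF has a peak in 2 libraries.

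Strength varied widely among the members. The highest mean fold was 18.6 for NHP2, a box H/ACA core protein, with 13.5 to 23.6 over the 12 libraries, followed by 18.5 for the helicase gene DDX18, with 15.7 to 21.5. The DDX18 peak stayed between percentiles 96.2 and 99.9. The lowest of the 34 members with a peak in all 12 libraries was NPM3, a small relative of nucleophosmin, with a mean fold of 6.59, a range of 5.32 to 8.43 and a mean percentile of 20.7. By role, the median percentile was 51.7 for the scaffold genes, 55.3 for RNA polymerase I transcription, 66 for box C/D, 76.7 for box H/ACA, 76.2 for small subunit and 74.1 for large subunit processing.

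UBTF, the factor that marks active ribosomal DNA, was the exception. Only 2 weak peaks reached within 1 kb of the start site used, with fold 3.41 in MOLM13 control replicate 2 and 3.74 in OCI-AML3 VTP50469 replicate 1. The summit of the OCI-AML3 peak lay 1030 bp after the start site. Inside the gene, 2 regions more than 1 kb from every start site used were called in all 12 libraries. They lay at chr17:44218304-44219534, 2.0 kb after the start site, and at chr17:44210243-44210964, 10.3 kb after it. Their fold ranged from 4.39 to 9.53 and from 4.69 to 15.8. With the start site put at the end of the annotated gene, a choice made after the values were seen, a peak was called in 1 library. Each gene was given 1 start site, and whether UBTF starts elsewhere in these cells was not tested.

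The NPM1 promoter was open in every library of the mtNPM1 line and of the others. Its fold was 7.12 and 10.3 in MOLM13 control, 9.46 and 11.3 with VTP50469, 12.7 and 11.1 in MV4-11 control, 12.7 and 10.8 with VTP50469. In OCI-AML3 it was 10.4 and 10.4 in control and 10.1 and 9.2 with VTP50469, inside the range of MOLM13 and below the 4 MV4-11 libraries. Ranks within a library did not follow this order. The difference in normal score, the scale explained below, between OCI-AML3 and MV4-11 was 0.23 (95% interval -0.38 to 0.84) and between OCI-AML3 and MOLM13 0.36 (-0.25 to 0.97), and neither passed the test (limma adjusted p = 0.625 and 0.476). NPM1 also had a second, weaker promoter region in all 12 libraries, 0.7 kb after the start site, with fold 4.20 to 6.60.

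NCL (nucleolin) is an RNA-binding protein of the nucleolus. Its fold was 10.1 and 9.03 in MOLM13 control, 10.3 and 12.3 with VTP50469, 10.7 and 9.59 in MV4-11 control and 13.1 and 9.65 with VTP50469. In OCI-AML3 it was 8.27 and 11.0 in control and 8.53 and 9.52 with VTP50469. The 3 lines overlapped, as did the treated and control libraries of MV4-11 and OCI-AML3, and no comparison passed the test.

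The first question was whether VTP50469 shifted these promoters. Fold ranks within each library were turned to normal scores, so that a shift of 1 is 1 SD of all regions, and tested with limma over 23338 regions called in all 12 libraries, 34 of them member promoters. Over the 3 lines 0 of 34 members passed (Benjamini-Hochberg adjusted p under 0.05), against 0% of all regions. At an unadjusted p under 0.05 there were 0 members, against 6.41% of all regions. The median shift of the members was 0.08, beside 0.01 for all promoter regions, 0.09 for other ribosome biogenesis genes and 0.06 for ribosomal protein genes. Of the members 23 lay above and 11 below 0. Above 0 also lay 5230 of 10078 promoter regions, 41 of 66 other ribosome biogenesis genes and 27 of 42 ribosomal protein genes. Shifts of single members ran from -0.30 to 0.38. A bulk profile cannot tell fewer cells with an open site from a less open site in every cell.

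The members with the smallest p over the lines were RRP12, PES1 and FBL, and none passed. RRP12, an export factor of small subunits, had fold 12.1 and 11.6 in MOLM13 control and 15.2 and 17.1 with VTP50469. It was 14.1 and 12.6 in MV4-11 control and 12.7 and 11.3 with VTP50469, and 12.7 and 10.9 in OCI-AML3 control and 14.7 and 12.6 with VTP50469. MOLM13 thus separated upward, whereas treated and control libraries overlapped in MV4-11 and OCI-AML3. The shift was 0.37 ± 0.24 (SE, limma adjusted p = 0.853). PES1, of the PeBoW complex of large subunit processing, shifted by 0.38 ± 0.30 (limma adjusted p = 0.873) and FBL by 0.37 ± 0.29 (0.874).

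**Figure D3:**
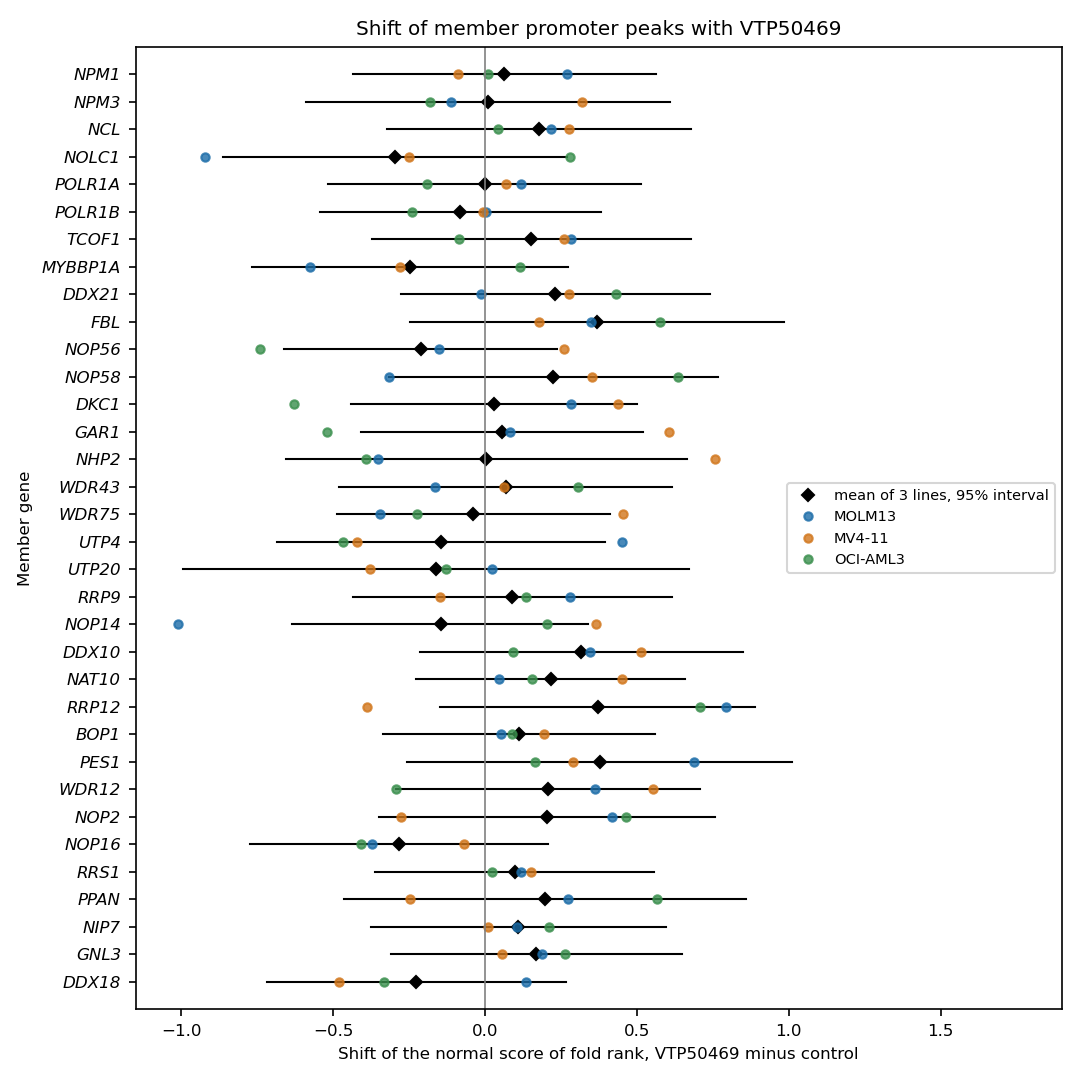
Shift with VTP50469 (treated minus control, in normal scores of fold rank) for the 34 member promoters called in all 12 libraries, with the mean of the 3 lines and its 95% interval (diamond and bar) and each line (coloured points). All 34 intervals include 0, and points of the 3 lines often lie on both sides of 0.

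Within single lines the result was the same. In MOLM13 0 of 34 members passed, against 0% of all regions, and 1 had an unadjusted p under 0.05, against 5.65%. This was NOP14, a small subunit factor, with fold 12.7 and 12.4 in control and 10.2 and 9.22 with VTP50469 (shift -1.01 ± 0.40, limma adjusted p = 0.775). In MV4-11 0 passed, against 0%, and 0 had an unadjusted p under 0.05, against 4.64%. The smallest p was that of GAR1, a box H/ACA protein, with fold 12.4 and 11.3 in control and 15.4 and 13.7 with VTP50469 (0.61 ± 0.38, limma adjusted p = 1). In OCI-AML3 0 passed, against 0%, and 0 had an unadjusted p under 0.05, against 7.8%. The smallest p was that of NOP56, a core box C/D protein, with 12.3 and 14.3 in control and 9.76 and 9.6 with VTP50469 (-0.74 ± 0.37, limma adjusted p = 0.662).

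The box H/ACA genes, 1 of 6 role groups and singled out after the values were seen, had a median of -0.52 in OCI-AML3, 0.61 in MV4-11 and 0.08 in MOLM13. All 3 lay below 0 in OCI-AML3, as did 4967 of 10078 promoter regions, and above 0 in MV4-11, as did 5891. DKC1 (dyskerin), the pseudouridine synthase, had fold 11.8 and 15.9 in OCI-AML3 control and 11.1 and 9.97 with VTP50469. It was 12.5 and 11.5 in MV4-11 control and 14.6 and 13.5 with VTP50469, and 10.7 and 10.6 in MOLM13 control and 11.2 and 14.5 with VTP50469. Its treated libraries were thus lower in OCI-AML3 and higher in the other lines. The shift in OCI-AML3 minus the mean of the MLL1-r lines was -0.99 ± 0.47 for DKC1 (limma adjusted p = 0.737), the smallest p of the members. In this comparison 0 of 34 members passed, against 0% of all regions, and 0 had an unadjusted p under 0.05, against 6.76%.

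Lines were compared over their control and treated libraries together. Between MV4-11 and MOLM13 0 of 34 members passed, against 4.42% of all regions, and 5 had an unadjusted p under 0.05, against 20.3%. All 5 were lower in MV4-11, and of all promoter regions at this p 1136 were lower and 326 higher. Below 0 lay 28 of 34 members, 6977 of 10078 promoter regions and 38 of 42 ribosomal protein genes. The median of the members was -0.30, beside -0.20 for all promoter regions, -0.28 for ribosomal protein genes and -0.13 for other ribosome biogenesis genes. GAR1 had fold 13.5 to 15.4 in MOLM13 and 11.3 to 15.4 in MV4-11 (shift -0.84 ± 0.27, limma adjusted p = 0.0895). NOP16 (-0.79 ± 0.28, limma adjusted p = 0.126) and RRP12 (-0.82 ± 0.30, limma adjusted p = 0.131) followed. These shifts are of ranks within a library, and the raw folds of both lines overlapped for all 3 genes. The median shift of the other regions within 5 Mb, a value added after the data were seen, was 0.05 around GAR1, -0.24 around NOP16 and -0.10 around RRP12.

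Between OCI-AML3 and MOLM13 0 of 34 members passed, against 8.79% of all regions, and 0 had an unadjusted p under 0.05, against 24.3%. The smallest p were those of GAR1 (-0.50 ± 0.27, limma adjusted p = 0.274), RRP9, a protein of the U3 snoRNP (-0.49 ± 0.30, limma adjusted p = 0.349), and FBL (-0.56 ± 0.36, limma adjusted p = 0.356). RRP9 had fold 12.3 to 17.5 in MOLM13 and 11.2 to 12.2 in OCI-AML3, and GAR1 had 13.5 to 15.4 and 9.89 to 13.4. The raw folds of the lines thus did not overlap for either gene, whereas the percentiles within a library did. These were 73.7 to 95 in MOLM13 and 59.7 to 81.5 in OCI-AML3 for RRP9, and 85.5 to 92.3 and 58.7 to 85.9 for GAR1.

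Between OCI-AML3 and MV4-11 1 of 34 members passed, against 13.6% of all regions and 7.24% in the lower direction, and 3 had an unadjusted p under 0.05, against 29.8%. The member that passed was FBL. Its fold was 11.6 and 17.5 in MV4-11 control and 15.7 and 15.5 with VTP50469, 5.45 and 9.87 in OCI-AML3 control and 7.89 and 8.79 with VTP50469, and 9.27, 9.39, 9.39 and 13.9 in MOLM13. Every OCI-AML3 library was thus below every MV4-11 library, with a mean of 8.0 ± 1.88 against 15.1 ± 2.47 (SD, n = 4 libraries each, control and treated), and MOLM13 overlapped with both. Summit reads of FBL were 9 to 17 in OCI-AML3 and 35 to 59 in MV4-11. Reads were not normalised between libraries. They were also lower in OCI-AML3 at NPM1 (31 to 36 against 53 to 67) and NCL (31 to 41 against 63 to 87), which were not called. At NPM3 they overlapped (16 to 26 against 22 to 33). The shift of FBL was -1.23 ± 0.36 (limma adjusted p = 0.0331), beside a median of -0.13 for the 172 other regions within 5 Mb. The call was lost without any of 6 libraries, MV4-11 control replicate 2, either treated MV4-11 library, OCI-AML3 control replicate 1 or either treated OCI-AML3 library (limma adjusted p = 0.0567 to 0.15), and over control libraries alone (-1.43, limma adjusted p = 0.13). The copy number of the FBL locus in each line was not tested.

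NPM3 followed, higher in rank in OCI-AML3 (0.99 ± 0.35, limma adjusted p = 0.0682), with fold 5.33 to 7.77 in MV4-11 and 5.78 to 8.43 in OCI-AML3, which overlap. RRP12 came next (0.73 ± 0.30, limma adjusted p = 0.117). The median of the 34 members was 0.24, beside 0.22 for all promoter regions.

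**Figure D4:**
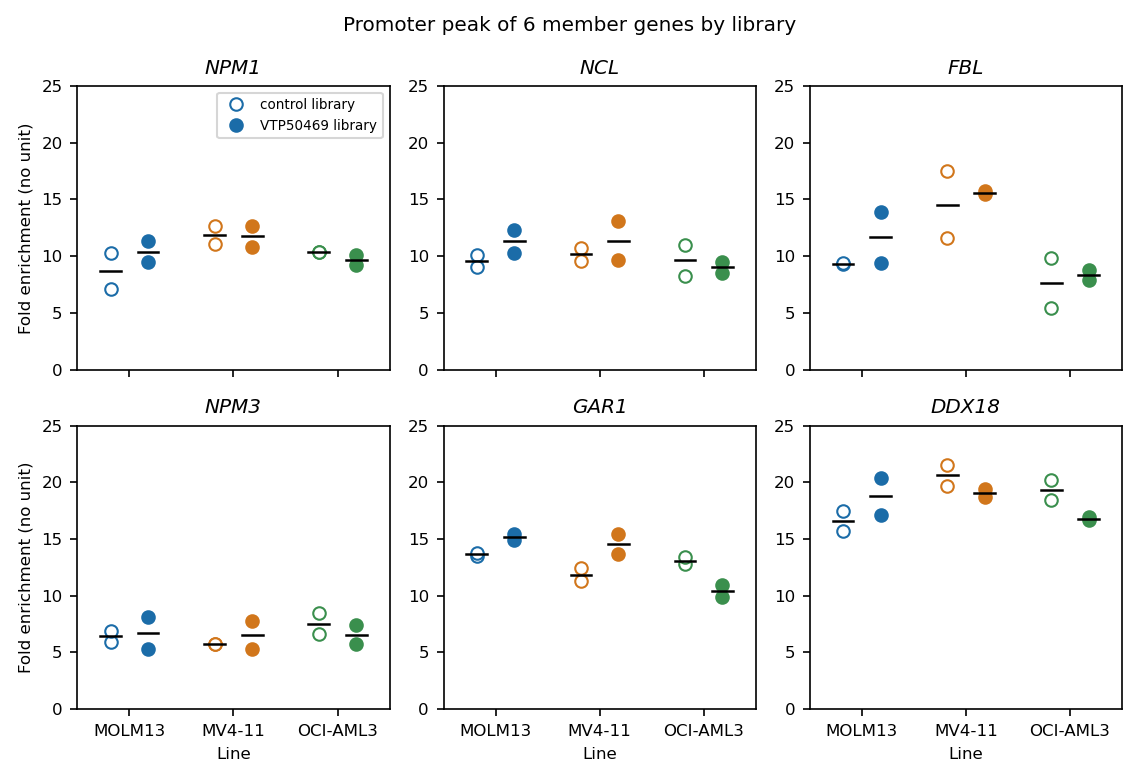
Fold enrichment (no unit) of the promoter peak of 6 members in each library, with open circles for control, filled circles for VTP50469 and a bar for the mean of the 2 libraries. FBL separates MV4-11 (11.6 to 17.5) from OCI-AML3 (5.45 to 9.87), whereas all 3 lines overlap for NCL, NPM3 and DDX18.

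Away from their own promoters the member loci held 201 regions, 17 of them at the promoter of another gene, 127 inside the gene and 57 in the flanks. Whether a region inside a gene is exonic or intronic is not given, as no gene models of this build were used here. Of the 184 regions away from any promoter, 94 were called in 1 library (51.1%, against 57.6% of all such regions) and 5 in all 12 (2.72%, against 4.29%). These 5 were the pair in UBTF, 1 in DDX10 at chr11:108733464-108734070, 68.7 kb after its start site, 1 in RRP12 at chr10:97365555-97366524, 35.3 kb after, and 1 in the flank of PES1 at chr22:30609227-30609922. The DDX10 region had fold 7.16 to 21.1 and was lower in OCI-AML3 than in MV4-11 (-1.20 ± 0.31, limma adjusted p = 0.0202). It was singled out after its values were seen, and 7.24% of all regions were called lower in the same comparison. Over control libraries alone it was -1.77 (limma adjusted p = 0.0422). With VTP50469 the same region had a shift of -1.32 ± 0.44 in MV4-11 (limma adjusted p = 0.904). The call between lines was lost without MV4-11 control replicate 2, MV4-11 VTP50469 replicate 2, OCI-AML3 control replicate 1 or OCI-AML3 VTP50469 replicate 1 (limma adjusted p = 0.0661 to 0.0929) and with summit reads ranked (-0.41, limma adjusted p = 0.159). With neighbours' promoters, 11 such regions were called in all 12 libraries, and the 10 others passed in none of the 8 comparisons. At an unadjusted p under 0.05 there were 6 of 88 values, where all regions had 4.64% to 29.8% in the single comparisons. These 6 were 2 each for the regions in DDX10, in UBTF 10.3 kb after its start site and beside PES1.

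**Figure D5:**
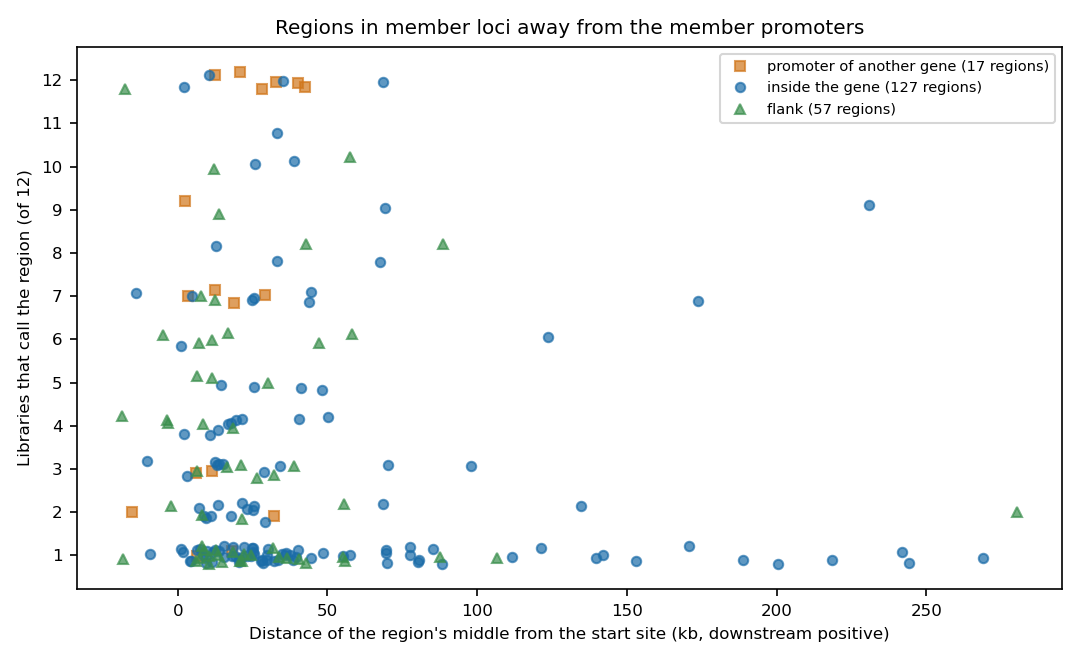
Regions of the member loci outside the member promoters, by distance of their middle from the start site (kb) and number of libraries that call them (points jittered vertically), split into promoters of other genes, the gene body and the flanks. Most points lie at 1 library, and 6 of the 11 regions in all 12 libraries are promoters of other genes.

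Line-specific regions were few. In all 4 libraries of MV4-11 and in no other library stood 5 regions (2.72%, against 2.09%), inside WDR43 and NAT10 and in the flanks of MYBBP1A, NOP16 and PPAN. The strongest was that of MYBBP1A, chr17:4536270-4537357, 18.6 kb after the start site, with fold 5.02 to 6.35. OCI-AML3 alone had 2 (1.09%, against 0.238%), 19.3 kb into UTP20, with fold 3.86 to 9.89, and 16.7 kb into BOP1, with fold 5.64 to 7.48. MOLM13 alone had 0, against 0.12%. Both MLL1-r lines and not OCI-AML3 had 2 (1.09%, against 0.986%), in the flanks of POLR1A and NAT10. In the FBL locus the promoter of the neighbouring kinase gene DYRK1B lay 12.5 kb after the FBL start site. It was called in 7 of 8 MLL1-r libraries and in 0 of 4 OCI-AML3 libraries. The same counts held at the promoter of LOC107985939 in the DDX18 locus and 173.9 kb into DDX10. How many of all regions had this pattern was not counted. A region without a peak was not called at this depth and need not be closed.

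A region counted as lost in a line when both controls but no treated library held it, and as gained in the reverse case. Such regions were also few, with −log10 q of 1.91 to 12.6. MOLM13 lost 0 of 147 member regions, against 1.3% of all its regions, and gained 3 (2.04%, against 3.22%), near NCL, in WDR75 and at the NOP16 promoter. MV4-11 lost 7 of 191 (3.66%, against 2.75%), in NCL, POLR1A, NOP58 and NOP14 and beside NHP2, NOP14 and PES1, and gained 6 (3.14%, against 1.92%), in NPM1, POLR1A, UTP4 and PES1 and beside NOP14 and BOP1. OCI-AML3 lost 3 of 134 (2.24%, against 2.57%), in UTP4, DDX10 and RRP12, and gained 4 (2.99%, against 1.32%), in WDR75 and at or beside NPM3, POLR1B and WDR43. The gains at NOP16 and POLR1B and beside BOP1 lay within promoter regions called in all 12 libraries once all libraries were merged. These promoters were thus open in the controls too. The gain in NPM1 lay 17.9 kb after the start site at chr5:171405634-171405769, with −log10 q of 2.95 and 9.81. The site in WDR75, 25.4 kb after its start site, was called in both treated and in no control library of MOLM13 (−log10 q 10.9 and 12.1). The same held in OCI-AML3 (5.64 and 5.79), and 3 of 4 libraries of MV4-11 called the site. It was singled out after its values were seen, and how many of all regions were gained in both lines was not counted.

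As a share of all peaks, member promoters took 3.03 to 7.24 per 10000 peaks of a library and the rest of their loci 5.17 to 7.57. The number of member promoter peaks stayed between 41 and 53 in all 12 libraries. The promoter share was 6.17 and 4.45 in MOLM13 control and 4.6 and 4.66 with VTP50469. The MV4-11 values were 3.83 and 3.63 in control and 4.24 and 3.03 with VTP50469, and those of OCI-AML3 were 7.24 and 5.08 in control and 6.88 and 6.84 with VTP50469. Control and treated libraries overlapped in every line for this share. The share of the rest of the loci was 7.18 and 7.57 in MV4-11 control and 6.31 and 6.54 with VTP50469. Both treated libraries thus lay below both controls in this share, whereas the peak numbers overlapped (90 and 100 in control, 73 and 95 treated). MV4-11 VTP50469 replicate 2 held the most peaks of any library, 145364. The share overlapped in MOLM13 (5.17 and 5.75 in control, 6.17 and 5.63 treated) and in OCI-AML3 (5.39 and 5.61 in control, 5.45 and 5.68 treated).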

How the data were processed

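Bulk ATAC-seq of 3 AML lines was analysed as 12 peak lists, 2 libraries in each of 6 groups. Whether the 2 libraries came from separate cultures is not stated, so p-values measure only the spread between these libraries. Per the labels, the authors' tools were MACS2 2.1.0, deepTools, Bowtie 1.1.2, Trimmomatic 0.33 and bcl2fastq 2.17, with hg38 as the build, and peaks were called in each library apart. The deposited ratio is the fold enrichment at the summit, the deposited −log10 values are p-values and q-values of the summit, the deposited score is derived from the q-value, and the deposited offset is the distance of the summit from the peak start. Values were not normalised between libraries, and sequencing totals are not in the lists. Handling of duplicates and the shift for Tn5 are not given in the sources used here. Reads over a summit were recovered from the fold (pseudocount of 1 read) and the Poisson p-value within a tolerance of 0.001.

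Peaks on chromosomes 1 to 22 and X were merged over 12 libraries at an overlap of 1 bp or more. Normal scores of within-library fold ranks were fitted with limma 3.58.1 (R 4.3.3) as 6 group means over regions called in all 12 libraries, with Benjamini-Hochberg adjustment over all 23338 regions. Lost, gained and line-specific regions, shares and motifs were counted with no test. Start sites came from the RefSeq promoter table (28 members) or the end of the RefSeq gene (7 members, without a printed sequence). On simulated data with 50 planted shifts of each size over the 3 lines among 23338 regions, 17 of those of 1, 46 of those of 2 and 50 of those of 3 were called, with 5 false calls. The members and gene lists were chosen with earlier results of these data known. Genes named with values were NPM1, NCL and FBL, the members with the smallest p in each comparison (3 over the lines and for each pair of lines, otherwise 1), the strongest and weakest promoters, members lacking a promoter peak in any library, and those with lost or gained regions, whereas UTP20, WDR75, MYBBP1A, the DDX10 region, the box H/ACA group and the regions called in some or all libraries were singled out after their values were seen. Alternatives were another scale, summit reads, a stricter q, a larger overlap, a narrower promoter, no flank, a replicate block, single-line fits, control libraries alone and leaving out each library.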

Additional observations from a re-analysis of the deposited data

How the results depend on the processing

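With VTP50469, in all lines together, in each line and in the difference between OCI-AML3 and the MLL1-r lines, 0 member promoters were called under every alternative run and without any 1 library. The same held for the difference of the shift between each pair of lines, added after the data were seen. Ranking summit reads in place of fold called 1 member between MV4-11 and MOLM13 (NOP56), 4 between OCI-AML3 and MOLM13 (NOP16, BOP1, FBL and NOP56) and 3 between OCI-AML3 and MV4-11 (NAT10, PPAN and FBL), with 3290, 6217 and 5802 of all regions called in place of 1032, 2051 and 3173. It also turned RRP12 to 0.0311 between MV4-11 and MOLM13 and to -0.0808 between OCI-AML3 and MV4-11. Between OCI-AML3 and MV4-11 0 members were called over control libraries alone, with 687 of all regions, and 0 with a −log10 q of at least 5, with 1581 of all regions, where the FBL promoter was not in all 12 libraries (lowest value 4.88). Leaving out 1 library gave 0 to 2 members, NPM3 joining FBL without either treated MOLM13 library, and 0 in every other comparison between lines. With the replicate block, 1 member was called between OCI-AML3 and MV4-11 (FBL, limma adjusted p = 0.0328) and 0 in every other comparison. The replicate numbers did not pair the libraries (correlations of deviations 0.05, 0.04 and 0.008).

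With a −log10 q of at least 5, MV4-11 gained 3 member regions, MOLM13 and OCI-AML3 gained 1 each, and OCI-AML3 lost 1. MV4-11 alone then had 3 regions, OCI-AML3 alone 1 and both MLL1-r lines 0, and member promoter peaks were 8.53 in place of 5.05 per 10000. With an overlap of at least 50 bp MOLM13 lost 2. Without the flanks OCI-AML3 gained 1, MV4-11 alone had 2 regions, both MLL1-r lines 0, and other member peaks were 3.22 in place of 6.04 per 10000. Groups of 2 libraries and 9 to 13 reads at a median summit limit these comparisons.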
